A study of Rattus norvegicus with 20 samples.

Results

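Collagens, laminins and integrins form the scaffold of the embryonic testis and the receptors by which its cells hold on to it. The genes described here are those on the rat array whose symbol names a collagen chain, a laminin chain or an integrin chain, 73 genes of 14217 with a symbol of their own. Chosen by symbol, they were 37 collagen genes, 10 laminin genes and 26 genes whose symbol starts with Itga or Itgb. Of the last, 4 name no integrin chain but carry the prefix (Itgb1bp1, Itgb1bp2, Itgb3bp and Itgbl1). The collagen genes Col6a1, Col6a2, Col6a3 and Col8a2 were left out of the selection. Of the 106 probe sets for these genes, each gene was read from the 1 that was brightest in mean log2 value.

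Gonads of Sprague-Dawley rat embryos were measured on 20 arrays in 10 groups of 2. In the in utero experiment, pregnant rats were injected on days E8 to E14 with DMSO, the vehicle, or with vinclozolin at 100 mg/kg/day, and testes were taken at E13, E14 or E16, which gave 6 groups. The E13 testes thus came from mothers whose course of injections had not ended. In the vinclozolin culture, E13 gonads were kept for 3 days with their mesonephros (the neighbouring embryonic kidney) attached, in DMSO or in 50 µM vinclozolin. The flutamide culture was of the same kind, with ethanol or 0.5 µM flutamide, and in both cultures the gonads of a pair were split between compound and vehicle and freed of the mesonephros before RNA was taken. Vinclozolin is a fungicide with antiandrogenic metabolites and flutamide is a drug that blocks the androgen receptor. Embryos were sexed by PCR of Sry, a gene of the Y chromosome. Arrays of a group are labelled as biological replicates, with the number of embryos or litters behind each not given, so the p-values measure only the spread between these arrays.

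Fibrillar collagens, led by types I and III, assemble into the fibres of the interstitium. Type IV collagens and laminins, trimers of an alpha, a beta and a gamma chain, each form a sheet, and together they make the basement membrane that surrounds the testis cords in which Sertoli cells and germ cells lie. Integrins are pairs of an alpha and a beta chain in the cell membrane that bind these proteins, and the Itgb1 chain pairs with many alpha chains.

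The values are signal intensities on a linear scale, taken to log2 after 16 was added, which understates the change of dim genes. Probe sets below the 40th percentile on all but 1 array, or on all of them, were not tested. This left 58 of the 73 genes (30 collagen, 8 laminin and 20 Itga or Itgb genes) among 22526 probe sets. The other 15 were too dim to test, among them Lama3, Lamb3, Col17a1 and Itgb6 (chains of epithelia such as skin) and Itgam and Itgax (chains of myeloid cells). Differences were tested with limma over all 20 arrays, with Benjamini-Hochberg adjustment over all probe sets and a threshold of 0.05. Intervals are at 95% confidence. In whole gonads, fewer cells of a type and less RNA per cell cannot be told apart.

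Some arrays stood apart from their group, and the results are given with that in view. E14 vehicle replicate 1 lay outside the range of the other 3 E14 arrays for 45 of the 58 genes, above it for 24 and below it for 21. Each of those 3 lay outside the rest of its stage for 17 to 31 genes. The share of all probe sets outside by any amount was not counted. E14 vehicle replicate 1 was outside by more than 0.5 on the log2 scale for 19 genes, against 8.86% of all probe sets. The summed intensity of 6 measured Sertoli markers was 3778 on this array and 10128 to 11920 on the other 3. Its level of the Sertoli hormone Amh was 1554, against 4893 to 5796. The summed markers of the mesonephros and tubules were 1899 there and 1063 to 1390 on the others, and those of red blood cells 10160 and 2798 to 4103. At E13 the arrays numbered 1 of both groups had Amh at 106 and 372, against 1485 and 1102, and the female-linked RNA Xist at 759 and 896, against 20.4 and 17.9. Xist read 175 and 184 in E14 vehicle testes, 32 and 489.9 in E14 vinclozolin testes, and 2.4 to 16.6 at E16. In culture it read 5.2 and 5.4 in DMSO, 5.1 and 113 with vinclozolin, and 168 to 212 in the flutamide culture. E16 vehicle replicate 1 lay outside the other 3 E16 arrays for 37 genes, where those 3 had counts of 21 to 33 and E13 vehicle replicate 1 had 36. By more than 0.5, E16 vehicle replicate 1 was outside for 9 genes, against 10.1% of all probe sets, the highest such share of the 20 arrays. The other 3 E16 arrays were outside by that much for 0 to 3 genes, against 1.91% to 2.75%. The summed Leydig markers of E16 vehicle replicate 1 were 10320 against 18113 to 20110, and it was the lowest E16 array for Col4a1, Col4a2, Lama1 and Lamc1. Some E14 to E16 differences are given below also without this array. What part these differences had in the results below was not tested.

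The promoters of a few genes are shown because these genes moved together between stages or had the smallest p on treatment. Sequences are RefSeq's, in the GRCr8 build, from a table that held a promoter for 57 of the 73 genes. Capitals mark matches on either strand to the CCAAT box, the GC box motif GGGCGG, the TATA box motif TATAAA or the SOX motif AACAAT, searched in the 250 bases before each start site. Col4a2 and Col4a1, the chains that join as the common collagen IV trimer, lie head to head at chr16:84749672-84885520 and chr16:84885597-84996482. Only 76 bases part their start sites, at chr16:84885521-84885596, of which 78.9% are G or C. Col1a2 codes for a chain of type I collagen, and its promoter at chr4:33518307-33518556 (plus strand) has 1 match to TATAAA and 1 to CCAAT. Lamc1 codes for the gamma1 chain of most laminins, and its promoter at chr13:68051987-68052236 (minus strand) has 5 matches to GGGCGG. Lama1 codes for the alpha1 chain of laminin 111, and its promoter at chr9:115139298-115139547 (plus strand) has no match.
Col4a2 to Col4a1, plus strand: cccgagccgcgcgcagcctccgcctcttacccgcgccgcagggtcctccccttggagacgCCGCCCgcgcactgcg
Col1a2: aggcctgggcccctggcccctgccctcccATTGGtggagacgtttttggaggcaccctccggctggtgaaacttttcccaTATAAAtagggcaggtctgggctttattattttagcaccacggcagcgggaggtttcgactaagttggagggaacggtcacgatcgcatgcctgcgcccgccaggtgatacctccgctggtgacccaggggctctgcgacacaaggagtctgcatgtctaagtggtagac
Lamc1: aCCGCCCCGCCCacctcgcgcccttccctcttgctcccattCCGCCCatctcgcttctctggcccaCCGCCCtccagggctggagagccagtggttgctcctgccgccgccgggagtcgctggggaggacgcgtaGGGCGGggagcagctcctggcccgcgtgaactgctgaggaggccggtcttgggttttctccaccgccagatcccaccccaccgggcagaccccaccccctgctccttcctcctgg
Lama1: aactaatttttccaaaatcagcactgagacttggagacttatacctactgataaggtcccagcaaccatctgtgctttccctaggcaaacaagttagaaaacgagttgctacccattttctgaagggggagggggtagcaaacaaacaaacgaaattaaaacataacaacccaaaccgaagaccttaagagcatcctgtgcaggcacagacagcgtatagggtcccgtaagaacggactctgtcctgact
Over the 57 promoters, GGGCGG matched in 52.6%, against 32.4% of 27457 rat promoters in the table. CCAAT matched in 26.3% against 34.3%, TATAAA in 10.5% against 13.1%, and AACAAT in 0.0% against 10.3%. These are descriptions of letters, and GGGCGG runs can overlap one another.

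**Figure D1:**
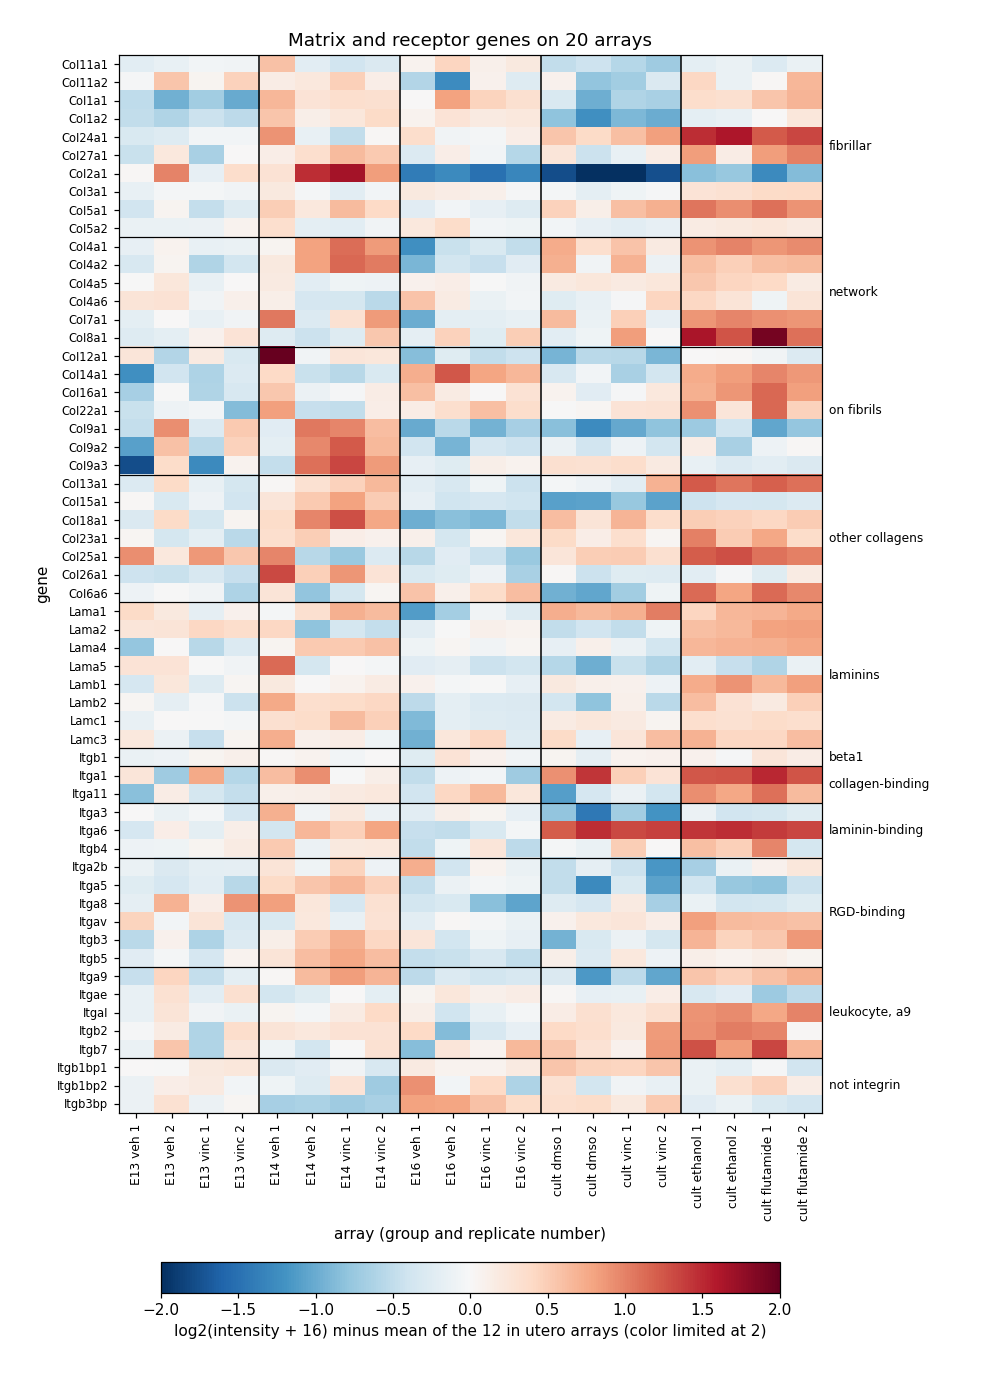
Color map of 58 genes (vertical axis, grouped by role) on 20 arrays (horizontal axis), as log2(intensity + 16) minus the gene's mean over the 12 in utero arrays, with all arrays first rescaled to 1 trimmed mean. Red is above and blue below that mean, and the E14 block is mostly red for Col4a1, Col4a2 and Col18a1 while Col2a1 is blue at E16 and in culture.

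The first question was how the scaffold and its receptors differ between stages as the cords form. Type I collagen was higher at E14 and E16 than at E13, the basement membrane genes Col4a1, Col4a2, Col18a1, Lama1 and Lamc1 fell from E14 to E16, and so did the cartilage-type collagen Col2a1. By the mean intensity of 4 arrays a stage, 35 of the 58 genes (60.3%) were highest at E14, 18 at E16 and 5 at E13. Of all probe sets tested, 43.5% were highest at E14. In vehicle testes, 4 of the 58 genes passed the threshold between E13 and E14 (2.93% of all probe sets did), 3 of them higher and 1 lower (1.26% and 1.67% of all). Without E14 vehicle replicate 1 the 4 genes had adjusted p of 0.0906 to 0.134, and 0.315% of all probe sets passed (0.169% higher, 0.146% lower). Between E14 and E16, 15 genes passed, 13 of them lower and 2 higher (22.0% of all probe sets, with 12.6% lower and 9.38% higher). Between E13 and E16, 8 passed, 4 each way (8.55%, with 4.39% higher and 4.15% lower). The median difference of the 58 genes was 0.35, -0.41 and -0.01 on the log2 scale in these comparisons, against 0.07, -0.10 and -0.04 over all probe sets. The comparisons share their groups, so a gene with a high E14 mean tends to read up in the first and down in the second. Averaged over vehicle and vinclozolin, with 4 arrays a stage, 24 genes passed between E13 and E14 (20 higher and 4 lower), against 25.1% of all probe sets (13.1% and 12.0%). Between E14 and E16 it was 29 (4 higher and 25 lower), against 41.5% (18.3% and 23.2%), and between E13 and E16 14 (5 higher and 9 lower), against 18.7% (9.45% and 9.30%). Without E14 vehicle replicate 1 the first count was 22 (18 higher and 4 lower), against 21.3% (10.4% and 10.8%), and the second 33 (9 higher and 24 lower), against 37.7% (17.0% and 20.7%). In each comparison most of the genes called with that array were also called without it. The share of all probe sets called both ways was not counted. In vehicle testes alone, 14 genes passed between E14 and E16 without it, against 13.0% of all probe sets (6.07% higher, 6.91% lower).

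**Figure D2:**
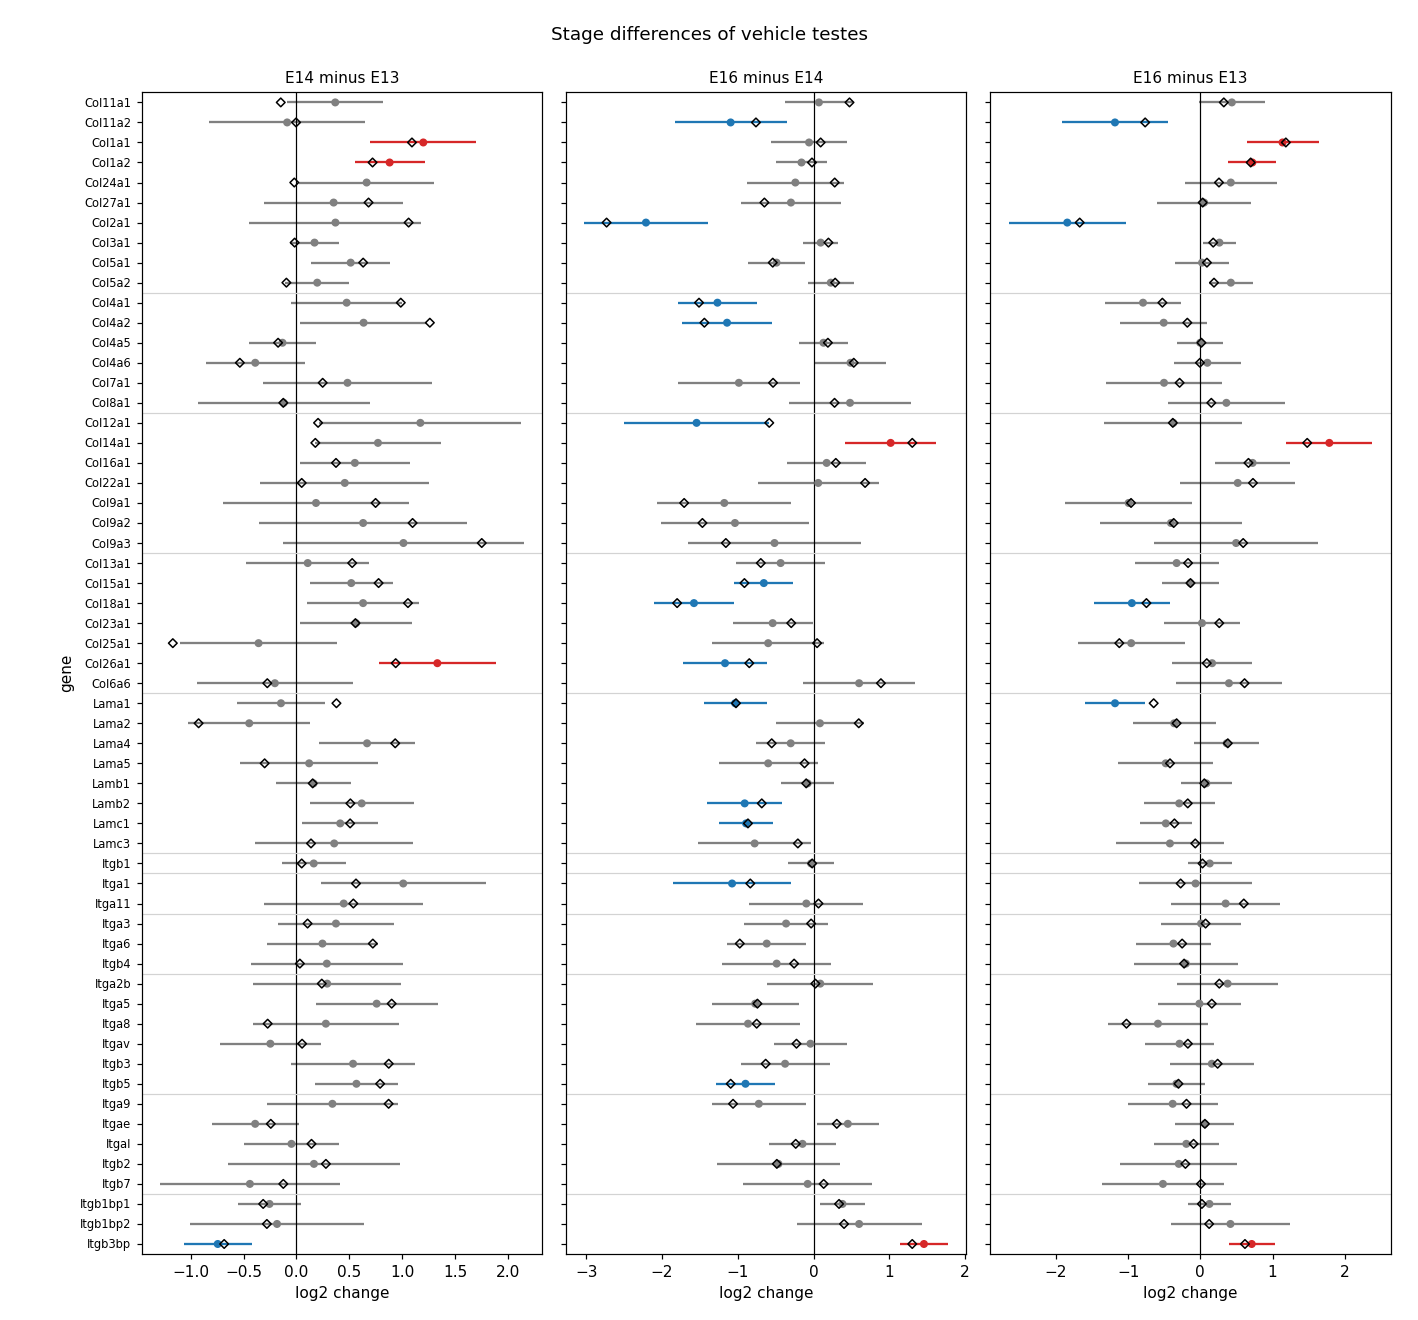
Differences between stages in vehicle testes (circles, log2 scale, horizontal axis) for 58 genes grouped by role, with bars for the 95% interval. Red and blue mark an adjusted p past the threshold, diamonds the difference averaged over vehicle and vinclozolin without E14 vehicle replicate 1, and the blue marks gather in the middle panel, where 13 genes were lower at E16 than at E14.

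Of 10 tested fibrillar collagen genes, 2 rose and 0 fell from E13 to E14 in vehicle testes, beside 1.26% and 1.67% of all probe sets. From E14 to E16, 0 rose and 2 fell, beside 9.38% and 12.6%. Col1a1 (chr10:80380458-80397461), the main chain of the type I fibre, read 2305 and 1666 in E13 vehicle testes, 5173 and 3950 at E14, and 3289 and 5712 at E16. Vinclozolin testes of these stages read 2014 and 1626, 4127 and 4108, and 4441 and 4101. Every E14 and E16 array was above every E13 array. Col1a1 rose by 1.20 (SE 0.24, adjusted p = 0.0192) between E13 and E14 and was 1.14 higher at E16 than at E13 (adjusted p = 0.00607).

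Col1a2, its partner chain, read 2708 and 2511 at E13, 5622 and 4126 at E14, and 4018 and 4618 at E16 with vehicle. It rose by 0.88 (SE 0.16, adjusted p = 0.0135) from E13 to E14, and E16 exceeded E13 by 0.72 (adjusted p = 0.00826). The second probe set of Col1a1 read 783 and 580.1, 1769 and 1307, and 979 and 1781, and that of Col1a2 1936 and 2327, 4137 and 3141, and 3753 and 4254. In both, the E14 and E16 vehicle arrays lay above the E13 ones. Read from its second probe set, however, Col1a1 was not called between E13 and E16. Averaged over treatments without E14 vehicle replicate 1, Col1a1 rose by 1.09 and Col1a2 by 0.72 from E13 to E14 (adjusted p = 0.00117 and 0.000708).

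Type III and type V collagens showed smaller differences. Col3a1, which forms fine fibres with type I, read 7348 and 8002 at E13, 9413 and 7923 at E14, and 9324 and 9102 at E16, with no call in any stage comparison. Col5a1, which sets fibre width, read 419 and 573, 779 and 639.7, and 468 and 530.2. Averaged over treatments, Col5a1 rose by 0.70 to E14 (adjusted p = 0.00104) and fell by 0.61 to E16 (adjusted p = 0.00107).

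Col2a1 (chr7:130977561-131006627) codes for the main fibrillar collagen of cartilage. It read 434 and 872 at E13, 524 and 1218 at E14, and 152 and 168 at E16 with vehicle, and 381 and 553, 1394 and 779.7, and 142 and 163 with vinclozolin. All 4 E16 arrays lay below all 8 earlier ones. It fell by 2.21 (SE 0.38, adjusted p = 0.00133) from E14 to E16, a 4.64-fold difference, and was 1.84 lower at E16 than at E13 (adjusted p = 0.00629). Its other probe sets were dim, the brighter at 68.4 to 155 at E14 and 36.9 to 57.2 at E16. Col11a2, of the same cartilage fibres, fell by 1.10 from E14 to E16 (adjusted p = 0.0339). Its vehicle values at both stages were below the 40th percentile of their arrays. It reached that percentile on 3 arrays only, all at E13 or E14, and was not called after quantile normalization.

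The type IX collagens, which coat cartilage fibrils, split the arrays in the same way as the Sertoli hormone Amh. Col9a3 read 62.7 and 330 in E13 vehicle testes, 95.3 and 264 with vinclozolin, 176 and 561 in E14 vehicle testes, and 660 and 469 with vinclozolin. The low arrays were both E13 arrays numbered 1 and E14 vehicle replicate 1, those with the lowest Amh of their stage. At E16 Col9a3 read 209.6 to 273. No type IX gene passed in the vehicle comparisons. Averaged over treatments, Col9a3 rose by 1.35 from E13 to E14 (adjusted p = 0.0165). From E14 to E16 Col9a1 fell by 1.39 and Col9a2 by 1.18 (adjusted p = 0.00135 and 0.00877), and these falls were 1.71 and 1.47 without E14 vehicle replicate 1. The part of Sertoli cell content in these differences was not tested.

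Col14a1, a collagen that binds along interstitial fibrils, rose. Its vehicle values were 92.9 and 180.0 at E13, 318 and 169.9 at E14, and 404 and 589 at E16, and vinclozolin testes read 149.5 and 194, 156 and 189, and 425 and 386. All E16 arrays exceeded all earlier ones. It was 1.79 (SE 0.28) higher at E16 than at E13 (adjusted p = 0.000801) and 1.02 higher than at E14 (adjusted p = 0.0181). The summed markers of peritubular and smooth muscle cells were also higher at E16, at 2729 to 3907 against 777 to 1447 at E13 and E14. Averaged over treatments, Tagln, Cnn1, Acta2 and Myh11 of this list rose from E14 to E16 by 2.91, 2.24, 1.51 and 0.65. Des, also of the list, differed by -0.16 (limma adjusted p = 0.37). The part of these cells was not tested.

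Col12a1, of the same family, fell by 1.54 from E14 to E16 with vehicle (adjusted p = 0.0232). This rested largely on E14 vehicle replicate 1, at 684 against 145 to 183 on the other E14 arrays. Without that array the vehicle difference was -0.48 (adjusted p = 0.348), and without E16 vehicle replicate 1 it was -1.24 (adjusted p = 0.150).

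Both chains of the common collagen IV trimer, whose shared interval is printed above, peaked at E14. Col4a1 read 956 and 1134 at E13, 1121 and 1883 at E14, and 447 and 787 at E16 with vehicle, and 971 and 972, 2357 and 1948, and 868 and 756 with vinclozolin. Col4a2 read 472 and 624, 685 and 1059.8, and 308 and 462 with vehicle, and 388 and 459, 1349 and 1239, and 432 and 509.6 with vinclozolin. Every E14 array was above every E16 array for both genes. From E14 to E16, Col4a1 fell by 1.27 (SE 0.25, adjusted p = 0.0026) and Col4a2 by 1.14 (SE 0.28, adjusted p = 0.0103). Without E16 vehicle replicate 1 these falls were 0.87 and 0.86 (adjusted p = 0.0372 and 0.0986). The rise from E13 to E14 was not called in vehicle testes alone (0.48 and 0.64). Averaged over treatments it was 0.80 for Col4a1 and 1.11 for Col4a2 (adjusted p = 0.00379 and 0.00113).

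The X-linked chains of the same family had other levels. Col4a5 read between 536 and 733 on all in utero arrays. Col4a6 read 109 and 111 at E13, 96.1 and 66.0 at E14, and 139 and 100.5 at E16 with vehicle. Averaged over treatments it rose by 0.42 from E14 to E16 (adjusted p = 0.0422).

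Col18a1 and Col15a1, collagens of basement membranes that release endostatin-type fragments, followed Col4a1. Col18a1 read 527 and 843 at E13, 839 and 1290.0 at E14, and 321 and 356 at E16 with vehicle, and 504 and 670.3, 1596 and 1110.3, and 339 and 457 with vinclozolin. It fell by 1.58 (SE 0.25) from E14 to E16 (adjusted p = 0.000761) and was 0.95 lower at E16 than at E13 (adjusted p = 0.0256), or 0.88 lower without E16 vehicle replicate 1 (adjusted p = 0.119). Its second probe set read 771 and 1291 at E14 and 222 and 348 at E16. Col15a1 fell by 0.66 from E14 to E16 (adjusted p = 0.0193), from 338 and 415 to 253 and 212.

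Col26a1, a collagen found in testis and ovary, read 328 and 321 at E13, 1131 and 624 at E14, and 358 and 373 at E16 with vehicle. Vinclozolin testes read 351 and 319, 829 and 539, and 412 and 277. All E14 arrays were above all others. It rose by 1.33 (SE 0.26, adjusted p = 0.0192) and then fell by 1.17 (adjusted p = 0.0058), and without E14 vehicle replicate 1 the averaged differences were 0.94 and -0.85 (adjusted p = 0.00227 and 0.0017). Col25a1, a transmembrane collagen, differed the other way. Averaged over treatments it fell by 0.78 from E13 to E14 (adjusted p = 0.0297), and by 1.17 without E14 vehicle replicate 1 (adjusted p = 0.000791).

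Among 8 laminin chains, none passed between E13 and E14 in vehicle testes (2.93% of all probe sets did). Between E14 and E16, 3 fell (Lama1, Lamb2 and Lamc1), beside 12.6% of all probe sets. Lamc1 read 695 and 779 at E13, 971 and 1001 at E14, and 409.5 and 668 at E16 with vehicle, and fell by 0.89 (SE 0.17, adjusted p = 0.00221). Lamb2, the beta2 chain, fell by 0.91 (adjusted p = 0.0119), from 662 and 486 to 261 and 332, by 0.69 without E14 vehicle replicate 1 (adjusted p = 0.107), and by 0.74 without E16 vehicle replicate 1 (adjusted p = 0.0916). Lamb1, the beta1 chain that pairs with Lamc1 in most embryonic laminins, differed little, at 1068 and 1582, 1552 and 1367, and 1436 and 1323.

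Lama1 read 193 and 166 at E13, 139 and 184 at E14, and 57.8 and 83.9 at E16 with vehicle. It fell by 1.04 (SE 0.20) from E14 to E16 (adjusted p = 0.00227) and was 1.18 lower at E16 than at E13 (adjusted p = 0.00123). Lama4, the alpha chain of vessel laminins, rose by 0.82 from E13 to E14 averaged over treatments (adjusted p = 0.0013), while Lama2, the alpha chain of muscle laminins, fell by 0.62 (adjusted p = 0.0272). Lama5 stood apart on 1 array, at 687 on E14 vehicle replicate 1 and 222 to 373 on the other 11 in utero arrays.

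Of 20 tested genes with an integrin symbol, 1 rose and 2 fell from E14 to E16 in vehicle testes, beside 9.38% and 12.6% of all probe sets. The 1 that rose was Itgb3bp, which names no integrin chain. Itgb1, the shared beta chain, read 2407 to 3426 on the 12 in utero arrays, and its stage differences were 0.16, -0.03 and 0.13, none called. Their intervals ran from -0.34 to 0.47 at the widest. Of the collagen-binding chains, Itga1 fell by 1.08 from E14 to E16 (adjusted p = 0.0456), from 133 and 169 to 52.8 and 74.0. It was not called after quantile normalization (-0.85, adjusted p = 0.0703), nor without any 1 of these 4 arrays.

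Itga6, a laminin receptor chain found on Sertoli cells and germ cells, read 482 and 676 at E13, 469.6 and 982 at E14, and 443 and 431 at E16 with vehicle. With vinclozolin it read 533 and 667, 863 and 1077, and 496 and 595. No vehicle comparison was called. Averaged over treatments it fell by 0.71 from E14 to E16 (adjusted p = 0.00386), and by 0.97 without E14 vehicle replicate 1, where the rise from E13 to E14 was 0.72 (adjusted p = 0.00246).

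Of 6 chains that bind the RGD motif of fibronectin and vitronectin, Itgb5 fell by 0.90 from E14 to E16 with vehicle (SE 0.19, adjusted p = 0.00378), from 468 and 611 to 275 and 284. Averaged over treatments, Itgb5, Itga5 and Itgb3 rose to E14 by 0.70, 0.86 and 0.78, and fell to E16 by 1.00, 0.70 and 0.54. Itga8, which binds nephronectin, was 1.02 lower at E16 than at E13 in the same average (adjusted p = 0.00486). In vehicle testes alone the difference was -0.59 and not called (adjusted p = 0.302), with vehicle at 243 and 252 and vinclozolin at 171 and 143 at E16. Averaged over treatments, Itga9, a receptor for tenascin, rose by 0.72 to E14 and fell by 0.91 to E16 (adjusted p = 0.0191 and 0.00237). It was not called in vehicle testes alone. The partner chain Itgav stayed uncalled throughout, at 210.0 to 368.

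Itgb3bp, listed by its prefix, codes for a centromere and nuclear receptor protein and not for an integrin chain. It read 942 and 1265 at E13, 639.9 and 652 at E14, and 1809 and 1789 at E16 with vehicle. It fell by 0.74 (adjusted p = 0.022) and then rose by 1.46 (SE 0.15, adjusted p = 2.96e-05), against the direction of most of the scaffold. All E14 arrays were below all others in utero.

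**Figure D3:**
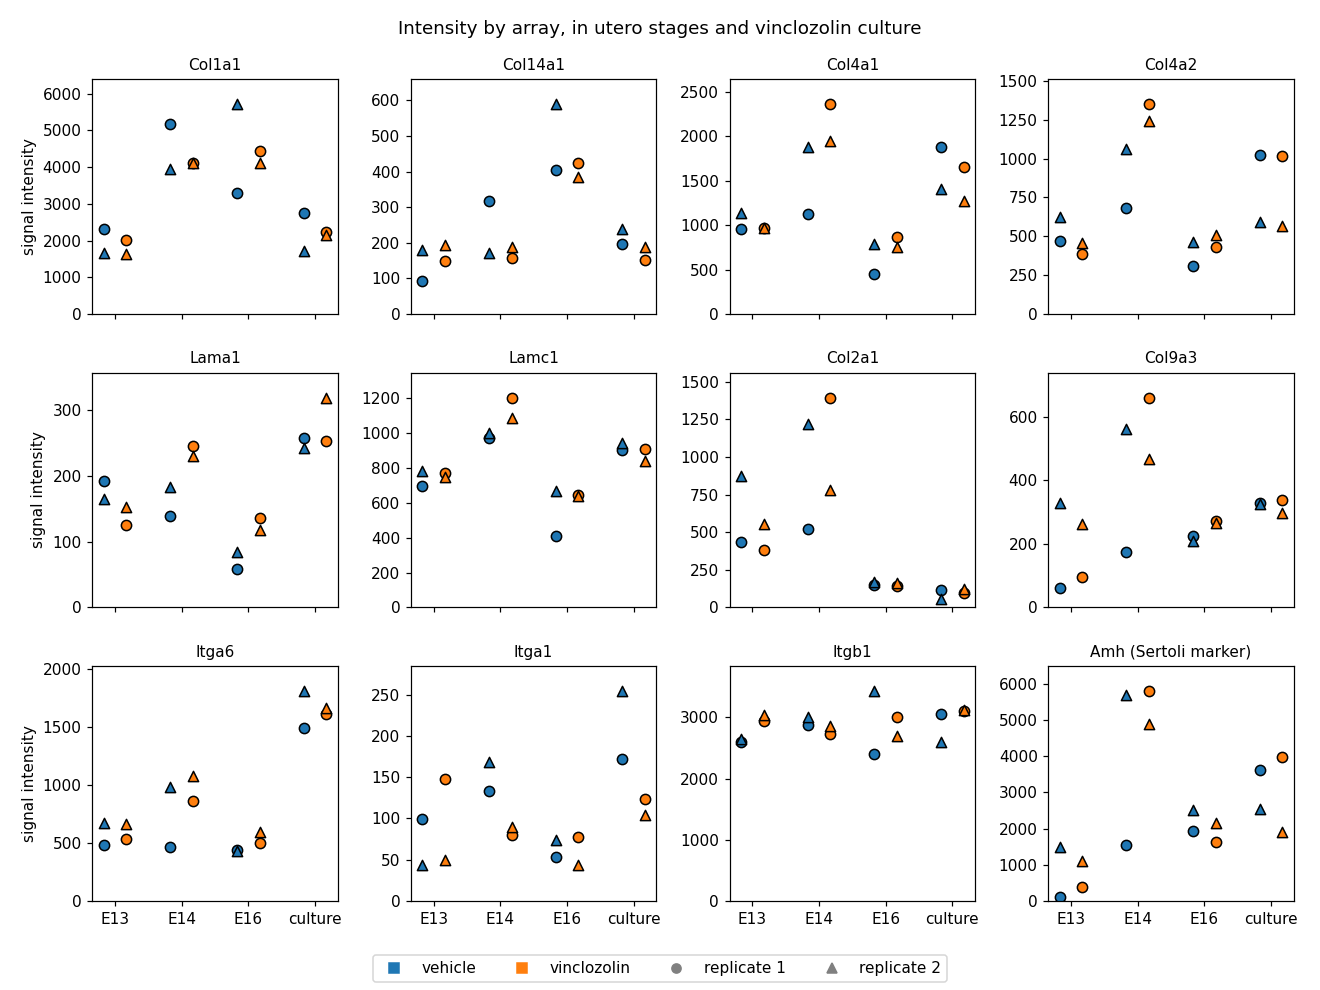
Signal intensity (vertical axes, from 0) of 11 matrix and receptor genes and of Amh on single arrays at E13, E14 and E16 and in the vinclozolin culture, with color for treatment and shape for replicate number. For Col4a1, Col2a1, Col9a3 and Itga6 the vehicle circle at E14 (replicate 1) lies below the other E14 points, as it does for Amh.

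Genes that build and partner these chains were read from lists chosen by function. Of 19 tested genes of collagen modification, secretion and crosslinking, 3 rose and 5 fell from E14 to E16 with vehicle, beside 9.38% and 12.6% of all probe sets. Lox, the enzyme that crosslinks collagen, rose by 2.99, from 149 and 61.0 to 962 and 807 (adjusted p = 9.13e-06). P4ha3, a prolyl hydroxylase chain, rose by 0.82. Loxl1 rose by 0.90 with vehicle, from 324 and 510.0 to 790.3 and 757, while vinclozolin testes read 690.4 and 636 at E14 and 468 and 549 at E16. Averaged over treatments its difference was 0.26 and not called (adjusted p = 0.306). The collagen chaperone Serpinh1 fell by 0.60, and Plod1, Plod3, P3h1 and Bmp1 fell by 0.50 to 0.89. Of 19 tested partners of the basement membrane and matrix, 7 fell and 1 rose, beside the same shares. Hspg2, the core protein perlecan, fell by 1.34, from 376 and 436 to 121 and 185, and Fn1, fibronectin, by 1.24 (adjusted p = 0.000757 and 0.000274). Agrn, Sdc4, Fbln1, Ddr1 and Smoc1 also fell. Tnc, tenascin C, rose by 1.20. Between E13 and E14, only Bmp1 and Hspg2 passed in these lists, both higher.

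Some markers of other cells also fell between E14 and E16 in vehicle testes, beside 12.6% of all probe sets. Of 6 mesonephros and tubule markers 4 fell, with differences of -2.77 for Cdh16, -1.55 for Pax8, -1.32 for Cdh1 and -1.26 for Lhx1, and the sum of the 6 was 1063 to 1899 at E14 and 778 to 808 at E16. Of 6 endothelial markers Kdr and Tie1 fell, with differences of -0.77 and -0.96 and sums of 2260 to 2570.0 and 1611 to 2035. Of 3 tested cartilage markers Hapln1 fell, with a difference of -1.40, and the 4 measured summed to 186 to 212 and 86.8 to 112. Other markers rose. Those of Leydig cells summed to 325 to 690 at E14 and 10320 to 20110 at E16, and those of red blood cells to 2798 to 10160 and 11682 to 17542. Sertoli markers were mixed. Averaged over treatments, Dhh, Ptgds and Fgf9 fell by 1.27, 0.76 and 0.65, Aard rose by 0.65, and Amh and Inha were not called. The part of any of these cells in the falls of matrix genes was not tested.

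The second question was whether vinclozolin shifted these genes. None of the 58 passed the limma threshold in utero, averaged over the stages or at E13, E14 or E16. Over all probe sets the share called was 0% in the first, second and last of these and 0.00444% at E14. At an unadjusted p under 0.05, 2 of the 58 genes passed in the average (4.10% of all probe sets), 0 at E13 (1.78%), 3 at E14 (5.50%) and 4 at E16 (6.69%). No other tool was run. In the average over stages the intervals of 57 of the 58 genes lay within 2-fold of no change.

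Lama1 had the smallest unadjusted p at each stage. Vinclozolin testes read 125.0 and 153 at E13, 246 and 230.2 at E14, and 136 and 118 at E16, beside the vehicle values above. The treated arrays were both below the vehicle arrays at E13 and both above them at E14 and E16. The differences were -0.34 (95% interval -0.75 to 0.08), 0.53 (0.11 to 0.95) and 0.73 (0.32 to 1.15), with adjusted p of 1, 0.888 and 0.508. A test of whether the effect differed between stages gave an unadjusted p of 0.00314 for Lama1 and an adjusted p of 0.983. It called none of the 58 genes and 0% of all probe sets, and 1 of the 58 genes was under an unadjusted p of 0.05, against 4.46% of all. Without E14 vehicle replicate 1 the E14 difference of Lama1 was 0.35, and without E16 vehicle replicate 1 the E16 difference was 0.52.

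Averaged over stages, Lama1 differed by 0.31 (0.07 to 0.55, unadjusted p = 0.015), Col4a6 by -0.35 (-0.62 to -0.08), Col4a1 by 0.30 (unadjusted p = 0.0519) and Itga6 by 0.29 (-0.02 to 0.59), all with an adjusted p of 0.998. A second probe set of Col4a6 did not share its direction. It read 78.3 and 84.3 with vinclozolin at E16 against 64.2 and 61.4 with vehicle, and its groups overlapped at E13 and E14. The Col4a1 and Itga6 values at E14 (0.56 and 0.49) were 0.19 and -0.03 without E14 vehicle replicate 1, which was low for both. With E14 vehicle replicate 2 left out, so that this array alone stood for the vehicle, 5 genes passed at E14 (1.21% of all probe sets): Itga6 higher, and Col11a1, Col12a1, Col25a1 and Lama5 lower. Itgb3bp differed by -0.16 and Col5a2, a type V collagen chain, by -0.15 in the average. At single stages the largest of the smallest-p differences were -0.35 for Col4a2 and 0.35 for Col14a1 at E13, 0.59 for Col4a2 and -0.72 for Col25a1 at E14, and 0.84 for Col11a2 and -0.47 for Col4a6 at E16. The others so named were Itgb1bp1, Itgb1 and Col4a5 at E13 (0.21, 0.19 and -0.18) and Col4a1 and Itgb3bp at E16 (0.44 and -0.32). Col24a1 and Col11a1, fibrillar chains, differed by -0.61 and -0.51 at E14. The E14 vinclozolin values of Col24a1, 11.7 and 23.8, were below the 40th percentile of their arrays. Without E14 vehicle replicate 1 the E14 differences were 0.28 for Col4a2, 0.06 for Col25a1, -0.09 for Col24a1 and -0.12 for Col11a1. At E16 Col5a2 differed by -0.36 (unadjusted p = 0.0237, adjusted p = 0.664). For type I collagen the average differences were small, -0.09 (-0.38 to 0.20) for Col1a1 and 0.02 (-0.17 to 0.21) for Col1a2. They were -0.10 for Col3a1, -0.05 for Lamb1, 0.18 for Lamc1 and 0.03 for Itgb1.

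In culture, vinclozolin and flutamide were each set against their vehicle. None of the 58 genes passed in either comparison (0% of all probe sets in each). At an unadjusted p under 0.05 there was 1 gene with vinclozolin (2.71% of all probe sets) and none with flutamide (2.19%). With the replicate number as a block none passed either, and 2 genes with vinclozolin (Itga1 and Col5a1, 3.64% of all probe sets) and 0 with flutamide (2.64%) were under an unadjusted p of 0.05. The labels do not say whether equal numbers mark the same pairs of testes. Itga1 had the smallest p with vinclozolin, at 173 and 254 in DMSO and 123 and 105 with the compound, a difference of -0.80 (-1.58 to -0.02, adjusted p = 1). Col5a1 read 793 and 619 in DMSO and 871 and 942 with vinclozolin, a difference of 0.36 (-0.01 to 0.74). Col6a6 and Col4a6 differed by 0.62 and 0.41, Itga2b, a platelet chain, by -0.46, and Col14a1 by -0.33. Col3a1, Lamb1, Lamc1 and Itgb1 differed by 0.06, -0.16, -0.08 and 0.14. With flutamide the smallest p was that of Col1a2, at 1694 and 1757 in ethanol and 1961 and 2273 with the drug, a difference of 0.29 (-0.04 to 0.62). Col1a1 read 2129 and 2088 in ethanol and 2450.0 and 2673 with flutamide (0.28, from -0.22 to 0.78). Itga2b and Col27a1 differed by 0.45 and 0.38, and Itgae, Col4a5 and Itgb3bp by -0.34, -0.20 and -0.16. Col3a1, Lamb1, Lamc1 and Itgb1 differed by 0.09, -0.09, 0.04 and 0.17.

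Doses of the compounds differed, at 50 and 0.5 µM, so their effects are given side by side. For Itga1 they were -0.80 with vinclozolin and 0.13 with flutamide, and the difference of effects was -0.93 (-2.03 to 0.17). For Lama1 the effects were 0.18 and 0.15, and for Col4a6 the difference of effects was 0.64 (-0.03 to 1.30). For Itga2b it was -0.91 (-1.90 to 0.08) and for Lamb2 0.49 (-0.21 to 1.18), while Col14a1 and Col5a1 had -0.45 and 0.37. The difference of effects was called for 0 of the 58 genes and 0% of all probe sets, with 0 of the 58 and 2.50% of all at an unadjusted p under 0.05.

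**Figure D4:**
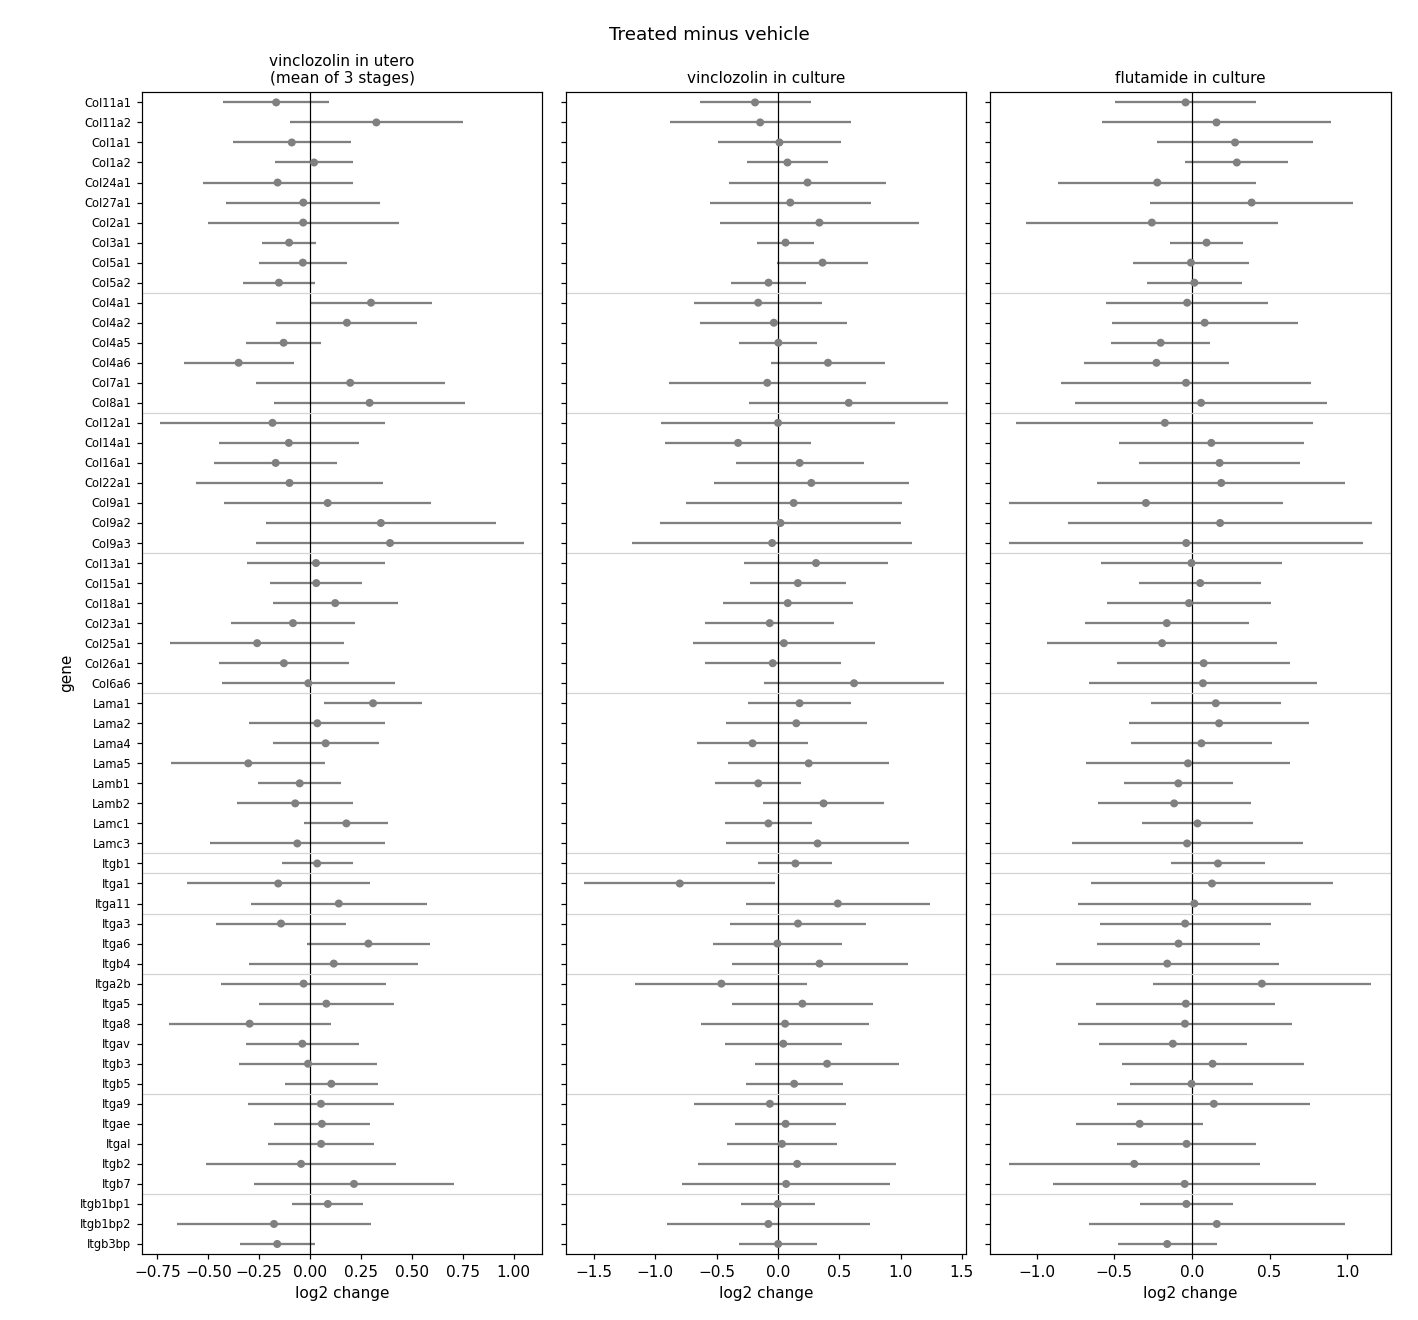
Treated minus vehicle difference (circles, log2 scale, horizontal axes) with 95% intervals for 58 genes grouped by role, for vinclozolin in utero averaged over 3 stages, vinclozolin in culture and flutamide in culture. All points are grey because no gene passed the threshold, and the bars of Lama1 and Col4a6 in the first panel do not reach 0.

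The last comparison set cultured testes beside testes grown in utero. Experiment and culture cannot be told apart here, so values are described with no test. The trimmed mean of the arrays was 210.1 in utero and 218.1 in the vinclozolin culture, but 107.0 in the flutamide culture, whose ratio of 3' to 5' actin signal, a sign of RNA length, was 9.08 to 11.06 against 1.73 to 3.90 elsewhere. Cultured DMSO testes were above both E13 vehicle arrays for 17 of the 58 genes and below both for 13 (33.2% and 26.7% of all probe sets). Against E16 vehicle, 23 were above and 16 below (36.6% and 25.7%). With all arrays rescaled to 1 trimmed mean the counts were 13 and 13 (30.1% and 29.7%), and 22 and 18 (33.7% and 28.5%). Rescaled ethanol testes were above E13 vehicle for 39 genes and below for 7 (42.6% and 28.1%), and 37 and 6 against E16 (46.0% and 27.1%).

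Itga6, Itga1, Lama1 and Col4a1 were among the genes above E16 vehicle testes in the DMSO culture. Itga6 read 1495 and 1809.9 in DMSO and 1614 and 1667 with vinclozolin, above all 12 in utero arrays, whose highest was 1077. This held for its brightest probe set. Another probe set of Itga6 read 203 and 260.0 in DMSO, above E16 vehicle (92.9 and 77.0) but not above E14 vehicle replicate 2 (262). In the ethanol group that probe set read 62.5 and 66.7 as deposited, and it was not rescaled. Itga1 read 173 and 254 in DMSO, above both E13 (98.7 and 43.2) and both E16 vehicle arrays. Lama1 read 258 and 243 and Col4a1 1877 and 1407, against 57.8 and 83.9, and 447 and 787, at E16. Rescaled to 1 trimmed mean, the differences from E16 were 1.82 for Itga6, 1.58 for Lama1 and 1.38 for Col4a1, and in the ethanol group of the flutamide culture 1.93, 1.45 and 1.78.

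Other genes stood low. Col2a1 read 119 and 56.7 in DMSO, below all in utero arrays, and Col9a1 read 78.2 and 54.1, while Amh was at 3613 and 2550.0 there. Col1a2 read 2244 and 1677, below every in utero array, but its second probe set read 2327 and 2259, within its E13 vehicle range. Itga3 read 175 and 107 against 261 and 330.2 at E16, and Lama5 207 and 153 against 257 and 266. In the ethanol group, rescaled, Col2a1 read 233 and 247, above both E16 vehicle arrays and below both E13 vehicle arrays. Col9a1, Itga3 and Lama5 there overlapped the E16 vehicle arrays. Col1a2 was 0.37 above E13 in that group. The places of these genes relative to E13 or E16 thus differed in part between the culture experiments.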

How the data were processed

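Gonad RNA was measured on 20 Affymetrix rat arrays. The deposited values are signal intensities, made by the authors with MAS5 in GCOS per the submitters' processing notes (versions not given in the sources used here). They appear scaled to 1 trimmed mean within each experiment. Control probe sets were left out, and a gene with several probe sets was read from the 1 with the highest mean log2(intensity + 16).

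One linear model with a term per group was fitted over all 20 arrays to log2(intensity + 16) in limma 3.58.1 (R 4.3.3), with eBayes and a variance trend. Benjamini-Hochberg adjustment ran over the 22526 probe sets that reached the 40th percentile on at least 2 arrays. The code was tested on simulated data. Intensities give no read depth, so the number of arrays limits the precision. The text always named 10 genes (Col1a1, Col1a2, Col3a1, Col4a1, Col4a2, Lama1, Lamb1, Lamc1, Itga6 and Itgb1), in each stage comparison up to 10 genes past the threshold in each direction, and in each treatment comparison without calls 3 each way by unadjusted p. Groups by role were described with up to 4 genes, and other genes of those groups were named after their values were seen. The genes and lists were chosen with earlier results of these data known. Alternatives covered the pseudocount, filter, quantile normalization, choice of probe set, arrays fitted, replicate block and leaving out each array. The correlation of deviations between same-numbered arrays was 0.602 at E13, 0.115 in the vinclozolin culture and not above 0 elsewhere. The labels do not say that numbers pair arrays, and not every set was above 0.1, so the block is an alternative only. Figures were drawn with matplotlib 3.10.9 in Python 3.11.15. Promoters and gene positions came from RefSeq tables of GRCr8.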

Additional observations from a re-analysis of the deposited data

How the results depend on the processing

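Of 415 values of the called stage differences of named genes under alternative settings, 341 kept their direction and side of the threshold, 74 kept their direction but no longer passed, and 0 reversed. Treatment differences, none of them called, were not in this count, and at E14 those of Itga6 and Col25a1 changed sign without E14 vehicle replicate 1 (-0.03 and 0.06). Itgb3bp, Col2a1 and Col18a1 stayed called between E14 and E16 in all 17 alternatives run. With only the arrays of a comparison fitted, 0 genes passed between E13 and E14, 7 between E14 and E16, and 0 between E13 and E16. With only the in utero arrays, 0 passed between E13 and E14. These fits have fewer arrays to estimate the spread from. Their shares of all probe sets called are not given here, so a loss in these genes and a general loss of calls cannot be told apart. Averaged over both treatments, 24, 29 and 14 genes passed in these comparisons. Without E14 vehicle replicate 1, an alternative chosen after seeing the data, the averaged counts were 22 and 33 in the first and second of them.

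Leaving out 1 array at a time gave 0 to 5 genes between E13 and E14 (0 when E14 vehicle replicate 1 was dropped and 1 when E13 vehicle replicate 2 was), 11 to 14 between E14 and E16, and 6 to 7 between E13 and E16. For vinclozolin at E14 it gave 0 to 5 genes, with 5 only without E14 vehicle replicate 2, and 0 in the other treatment comparisons. Where an arm kept 1 array, its spread was taken to equal that of the other groups. Shares of all probe sets are given above only without E14 vehicle replicate 1 and, for vinclozolin at E14, without E14 vehicle replicate 2. The other stage counts have no such share beside them and are no result about these genes.

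With the replicate number as a block, 7 genes passed between E13 and E14, against 4 without it, and 0 in each treatment comparison. The share of all probe sets called between E13 and E14 with the block is not given here. Deviations of same-numbered arrays correlated at 0.602 at E13, 0.115 in the vinclozolin culture, -0.055 at E14 and -0.112 at E16, so not every set was above 0.1. Crossing the pairing at E16, added after seeing the data, left 0 genes called for vinclozolin there. With 2 arrays a group the median interval of a single-stage treatment effect reached 0.576 either side on the log2 scale, so smaller differences were not resolved. Dim genes such as Col11a2 sat near background, where an added pseudocount shrinks differences.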

Other observations

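Proteases that cut this scaffold were read from a list chosen by function, of which 14 of 17 genes were tested. In vehicle testes 2 rose from E13 to E14, Mmp2 by 1.13 and Plau by 1.57 (limma adjusted p = 0.0192 and 0.0145), beside 1.26% of all probe sets. Plau, the urokinase that activates plasminogen, read 37.0 and 39.0 at E13, 203 and 101 at E14, and 29.5 and 35.4 at E16, and it fell by 1.73 from E14 to E16. Its cultured DMSO values were 264 and 216. In the ethanol group of the flutamide culture it read 35.8 and 46.7 as deposited, on arrays with a trimmed mean of 107.0 against 218.1. Adamts5, a proteoglycan-cleaving protease, rose by 1.74 from E14 to E16 (adjusted p = 0.000335).

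Of 18 tested integrin adaptors, which tie integrins to actin, 5 fell and 2 rose between E14 and E16 in vehicle testes, beside 12.6% and 9.38% of all probe sets. Pxn, Src, Bcar1, Tln2 and Tln1 fell by 0.57 to 1.07, while Lims1 rose by 0.94 and Fermt2 by 0.43. The median of the list was -0.26, against -0.10 over all probe sets.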
